A study of Dendroctonus valens with 12 samples.

Results

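A group of 5 genes that control transcription or chromatin was followed in the red turpentine beetle *Dendroctonus valens*, in insects taken from the field in winter and in spring. The 5 are unigenes, contigs of a de novo transcriptome assembly taken as genes, among 58956 unigenes in all. They are a homolog of VPS72 (unigene TRINITY_DN23225_c1_g1), a match to the runt-related factor RUNX2 (TRINITY_DN24512_c0_g1), a match to the cAMP-responsive element-binding protein-like factor CREBL2 (TRINITY_DN19486_c2_g1), a chinmo-like zinc finger unigene (TRINITY_DN25066_c0_g3) and a match to longitudinals lacking, or lola (TRINITY_DN23290_c0_g1). The prefix is left out of the other identifiers. How they were chosen is known only in part: they were proposed as a group with the values of these libraries in view, and 4 of them stand in the part used here of the study's list of unigenes that differed between the months in both stages. January values set against May values, and the difference of that contrast between the stages, are therefore taken as used in the choice and given as a description, without a test. The comparison of adults with larvae over both months was taken as not used and was tested, although it draws on the same libraries and the choice may have touched it.

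The libraries were made from January adults and May adults, and from January larvae and May larvae, with 3 in each group and 12 in total. Each library is 1 whole, wild insect with no treatment or genetic change, the larvae being of a late instar. The January groups carry the label cold and the May groups the label normal, so month, temperature and date cannot be told apart. Neither the sex nor the age of an insect is given in the sources used here. The values are FPKM, that is, fragments per kilobase of unigene relative to all mapped fragments. Because a whole insect was used, a change in the number of cells that express a gene and a change in RNA per cell cannot be told apart.

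The libraries differed in ways that touch every value below. Between 24717 and 28292 unigenes reached 1 FPKM in January adults and 16595 to 21622 in May adults, against 15028 to 25771 in January larvae and 8291 to 16681 in May larvae. The 20 highest unigenes of each library took 35.0% to 63.6% of its FPKM in May larvae and 27.5% to 42.6% in January larvae. In adults the share was 14.9% to 37.2% in January and 33.7% to 48.7% in May. May larva 3 had the highest FPKM sum, 1.79e+06. The study's read statistics give all May larvae a higher GC content than every other library. The part of these differences in the larval gaps was not tested. A set of 4823 unigenes was at 1 FPKM or more in January larva 3 and May larva 1 and under 0.1 FPKM in the other 4 larvae, and took 4.88% and 4.07% of their FPKM. The same set took 3.02% to 9.51% of the FPKM of January adults, against 0.148% to 1.15% of that of May adults. None of the 5 regulators belongs to it. The 59 unigenes matched to nematodes took 0.132% to 0.257% of the FPKM of January adults, against 0.0104% to 0.0515% in May adults, and at most 0.248% in a larva. Of the 31 nematode matches tested in adults 21 were called higher in January (67.7%, against 28.3% of all unigenes tested in adults). Their median difference was 2.70, against 1.02 over all unigenes tested in adults. Of the 31, 10 were admitted to the test only through their January adults, and 8 of the 21 calls were among these. The part of the nematode matches in the results on the regulators was not tested. The median difference of all tested unigenes between January and May, on the log2(FPKM + 1) scale, was 1.02 in adults and 1.26 in larvae. After median-of-ratios scaling, in which a library is divided by the median of its ratios to the across-library geometric means of the 9529 unigenes above 0 everywhere, it was 1.04 in adults and 0.23 in larvae. Each regulator is given on both scales for that reason.

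These regulators act at different levels of gene control. VPS72, called YL-1 in *Drosophila*, is a subunit of the complexes that exchange a histone in the nucleosome for the variant H2A.Z, which in flies is H2A.V. The other 4 are matched by name to sequence-specific DNA-binding factors: RUNX proteins bind through the Runt domain and in flies act in segmentation and in blood and eye cells, and CREBL2 is a basic leucine zipper protein whose fly counterpart, REPTOR-BP, takes part in the transcriptional response to low TORC1 signalling. In flies chinmo is a BTB zinc finger gene that maintains juvenile and early-born cell states, and lola encodes many zinc finger isoforms known for their part in axon growth and guidance. These roles come from other species and were not measured in this beetle.

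The VPS72 homolog, the chromatin regulator of the 5, had the widest gap between the larval groups on the log2(FPKM + 1) scale. That place depends on the measure: with 0.1 added in place of 1, the RUNX2 match had 6.04 against 5.37. By the ratio of means the chinmo-like unigene was wider as deposited, at 40.1 against 38.8. The VPS72 homolog had 95.54, 83.82 and 96.85 FPKM in January adults, against 20.33, 23.68 and 28.16 FPKM in May adults. It had 148.86, 149.57 and 150.69 FPKM in January larvae, against 6.18, 3.27 and 2.13 FPKM in May larvae. The 4 groups did not overlap, and their order ran from January larvae through January adults and May adults to May larvae. The ratio of the January to the May mean was 3.83 in adults and 38.8 in larvae. With median-of-ratios scaling the January and May groups still did not overlap in either stage, and the ratio was 3.92 in adults and 13.7 in larvae. January adults, at 50.4 to 104 scaled FPKM, then overlapped January larvae, at 89.3 to 137 scaled FPKM, so those neighbours in the order were not separated beyond their spread.

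The CREBL2 match was the most abundant of the 5 by mean FPKM in every group, although in May adults its range overlapped those of the RUNX2 match and the VPS72 homolog. It had 171.87, 217.38 and 185.32 FPKM in January adults, against 24.49, 39.31 and 17.55 FPKM in May adults. January larvae had 245.34, 222.35 and 235.27 FPKM and May larvae 10.23, 10.28 and 9.03 FPKM. The lowest January insect of either stage was thus above the highest May insect of either stage. The ratio of the January to the May mean was 7.06 in adults, the highest of the 5 regulators in that stage, and 23.8 in larvae. With median-of-ratios scaling it was 7.29 in adults and 8.74 in larvae. May adults, at 14.5 to 26.1 scaled FPKM, then overlapped May larvae, at 17.1 to 25.5 scaled FPKM.

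The RUNX2 match stood apart from the others in adults. It had 56.96, 31.29 and 30.62 FPKM in January adults, against 16.43, 32.55 and 29.06 FPKM in May adults, and these groups overlapped. It had 30.78, 40.53 and 37.10 FPKM in January larvae, whereas May larvae were listed at 1.19, 0 and 1.16 FPKM. The January adults, May adults and January larvae therefore shared 1 range of levels, and the May larvae lay far under it. A mean ratio is not given for larvae, since 1 May larva is listed at 0 and a value of 0 can be a failed estimate. With median-of-ratios scaling the ranges were 18.8 to 40.5 in January adults, 14.4 to 24.1 in May adults, 18.5 to 37.3 in January larvae and 0 to 2.97 in May larvae, so the pattern of overlap did not change. The levels of these neighbours in the order (January adults, January larvae and May adults) did not differ beyond their spread.

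The 2 zinc finger unigenes were expressed at lower levels. The chinmo-like unigene had 5.92, 14.31 and 17.50 FPKM in January adults, against 2.33, 3.87 and 3.59 FPKM in May adults. It had 12.94, 11.86 and 14.08 FPKM in January larvae, against 0.32, 0.36 and 0.29 FPKM in May larvae. January adults and January larvae overlapped, while each May group lay under its January group and the May larvae under the May adults. The ratio of the January to the May mean was 3.85 in adults and 40.1 in larvae, and with median-of-ratios scaling 4.18 in adults and 14.9 in larvae.

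The lola match was the lowest of the 5 by mean FPKM in every group. It had 9.17, 6.32 and 3.06 FPKM in January adults, against 0.93, 0.92 and 1.22 FPKM in May adults. January larvae had 3.28, 2.15 and 3.40 FPKM and May larvae 0.11, 0.26 and 0.13 FPKM. The January groups overlapped each other as deposited but not after median-of-ratios scaling, at 3.29 to 6.52 in adults and 1.97 to 2.68 in larvae, and May adults lay above May larvae. The ratio of the January to the May mean was 6.04 in adults and 17.7 in larvae, and with median-of-ratios scaling 5.59 in adults and 6.77 in larvae. The chinmo-like unigene and the lola match passed the filter of the larval fit (at least 1 FPKM in 3 libraries) only through their January larvae, and their values in May larvae rest on few reads.

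**Figure D1:**
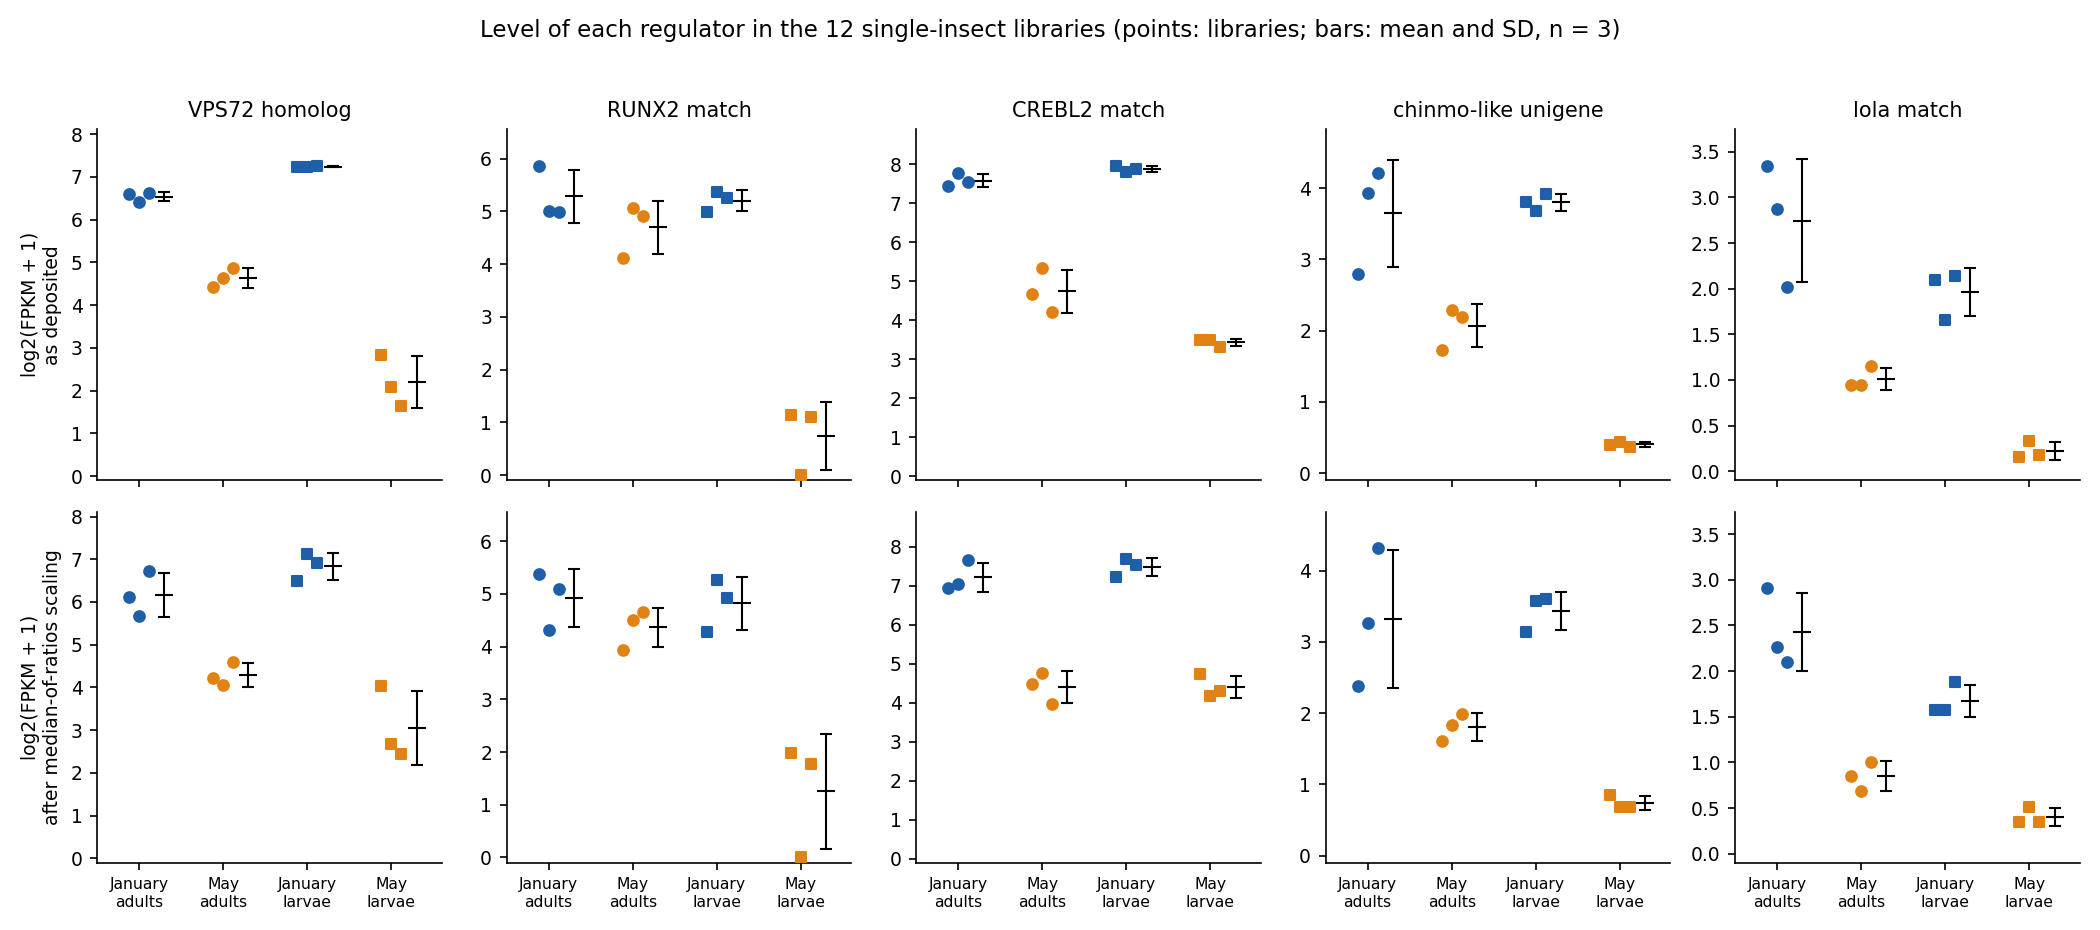
Level of each of the 5 regulators, as log2(FPKM + 1), in January adults, May adults, January larvae and May larvae, with the FPKM as deposited in the upper row and after median-of-ratios scaling in the lower row; points are the 3 single-insect libraries of a group and bars its mean and SD. January larvae lie above May larvae in all 5 panels of both rows, whereas the adult groups of the RUNX2 match overlap.

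Set side by side, the month differences of the 5 had different sizes in the 2 stages. On the log2(FPKM + 1) scale, which understates the change of low genes, the January minus May difference of the VPS72 homolog was 1.90 in adults and 5.04 in larvae. For the RUNX2 match it was 0.58 in adults and 4.46 in larvae, and for the CREBL2 match 2.84 in adults and 4.44 in larvae. The chinmo-like unigene had 1.57 in adults and 3.40 in larvae, and the lola match 1.73 in adults and 1.74 in larvae. With median-of-ratios scaling the adult values ran from 0.56 for the RUNX2 match to 2.81 for the CREBL2 match, and the larval values from 1.27 for the lola match to 3.78 for the VPS72 homolog.

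All 5 regulators had January larvae above May larvae without overlap on both scales. The same held for 53.4% of the 11635 unigenes tested in larvae as deposited and for 30.4% after median-of-ratios scaling. In adults 4 of the 5 had January insects above May insects without overlap on both scales, as had 45.2% of the 23423 unigenes tested in adults as deposited and 49.5% after scaling. Nothing is read from these counts, since the members were chosen on this contrast. Against the median of all tested unigenes, the scaled larval difference was 3.55 higher for the VPS72 homolog, 3.33 for the RUNX2 match, 2.84 for the CREBL2 match, 2.46 for the chinmo-like unigene and 1.04 for the lola match. In adults the scaled difference of the RUNX2 match was below that median, by a value of -0.48, and the CREBL2 match was above it by 1.77.

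**Figure D2:**
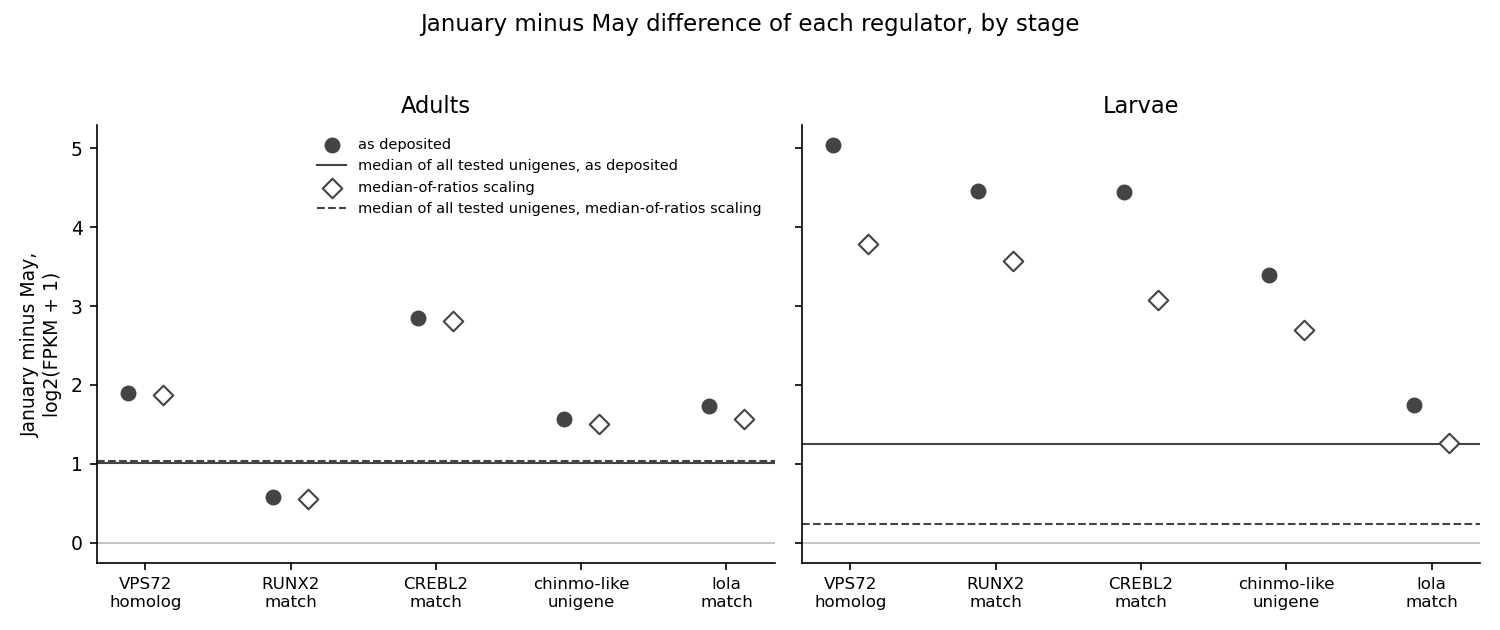
January minus May difference of each regulator on the log2(FPKM + 1) scale in adults (left) and larvae (right); filled circles are FPKM as deposited, open diamonds are FPKM after median-of-ratios scaling, and the solid and dashed lines are the medians of all tested unigenes on those scales. In larvae the difference of the VPS72 homolog is 5.04 as deposited and 3.78 scaled, and in adults the RUNX2 match lies under both lines at 0.58 and 0.56.

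The adult values depended on which unigenes set the scale. When median-of-ratios factors were computed from the unigenes above 0 in all 6 adult libraries, an alternative added after the data were seen, the median January minus May difference of all unigenes in adults was 0.06. The adult difference of the VPS72 homolog was then 0.75, that of the CREBL2 match 1.69, that of the chinmo-like unigene 0.59 and that of the lola match 0.89. That of the RUNX2 match changed sign, to -0.55. On this scale the January and May adults overlapped for the VPS72 homolog, the RUNX2 match and the chinmo-like unigene, and did not overlap for the CREBL2 match and the lola match. The corresponding larval differences, from 1.14 for the lola match to 3.79 for the VPS72 homolog, stayed positive and without overlap.

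The larval minus the adult January-May difference was 3.14 for the VPS72 homolog, 3.87 for the RUNX2 match, 1.60 for the CREBL2 match, 1.82 for the chinmo-like unigene and 0.01 for the lola match. With median-of-ratios scaling these were 1.91, 3.01, 0.26, 1.19 and -0.30 in the same order. The wider larval gap of the CREBL2 match as deposited was thus mostly absent after this scaling over all 12 libraries. With scaling within the stage its January minus May difference was still larger in larvae, at 3.12 against 1.69 in adults. The difference between the stages for the RUNX2 match was over 3 log2 units both as deposited and with scaling over all 12 libraries. The difference was not tested, for the reason given above.

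Ranks inside a library do not depend on any scaling. Each regulator was ranked against up to 1418 unigenes whose best match is a protein of *Dendroctonus ponderosae*, the mountain pine beetle. The VPS72 homolog was above 92.6% to 96.3% of them in January adults, against 79.3% to 86.5% in May adults. It was above 95.2% to 96.8% in January larvae, against 59.9% to 75.5% in May larvae. For the CREBL2 match the shares were 96.8% to 98.1% in January adults, against 78.2% to 86.0% in May adults, and 96.6% to 97.7% in January larvae, against 77.5% to 81.2% in May larvae. The ranks of the CREBL2 match were high in every group, and those of the VPS72 homolog in all but the May larvae. For both, January was above May in both stages.

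The RUNX2 match ranked alike in 3 groups. It was above 80.2% to 88.9% of these unigenes in January adults, 79.2% to 87.1% in May adults and 80.9% to 88.8% in January larvae, and above 57.0%, 0% and 51.0% in the 3 May larvae. The chinmo-like unigene was above 56.1% to 80.0% in January adults, against 39.1% to 45.0% in May adults, and 67.8% to 73.2% in January larvae, against 37.0% to 40.9% in May larvae. For the lola match the shares were 47.2% to 61.8% in January adults, against 26.6% to 31.7% in May adults, and 45.3% to 46.1% in January larvae, against 31.5% to 35.9% in May larvae. By rank, the May larvae of the lola match overlapped its May adults and lay mostly above them, although their FPKM were lower. At such low values the rank depends on how many of the compared unigenes lie at or near 0. In May larvae 8291 to 16681 unigenes reached 1 FPKM, against 16595 to 21622 in May adults. The rank is therefore not read as a higher lola level.

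**Figure D3:**
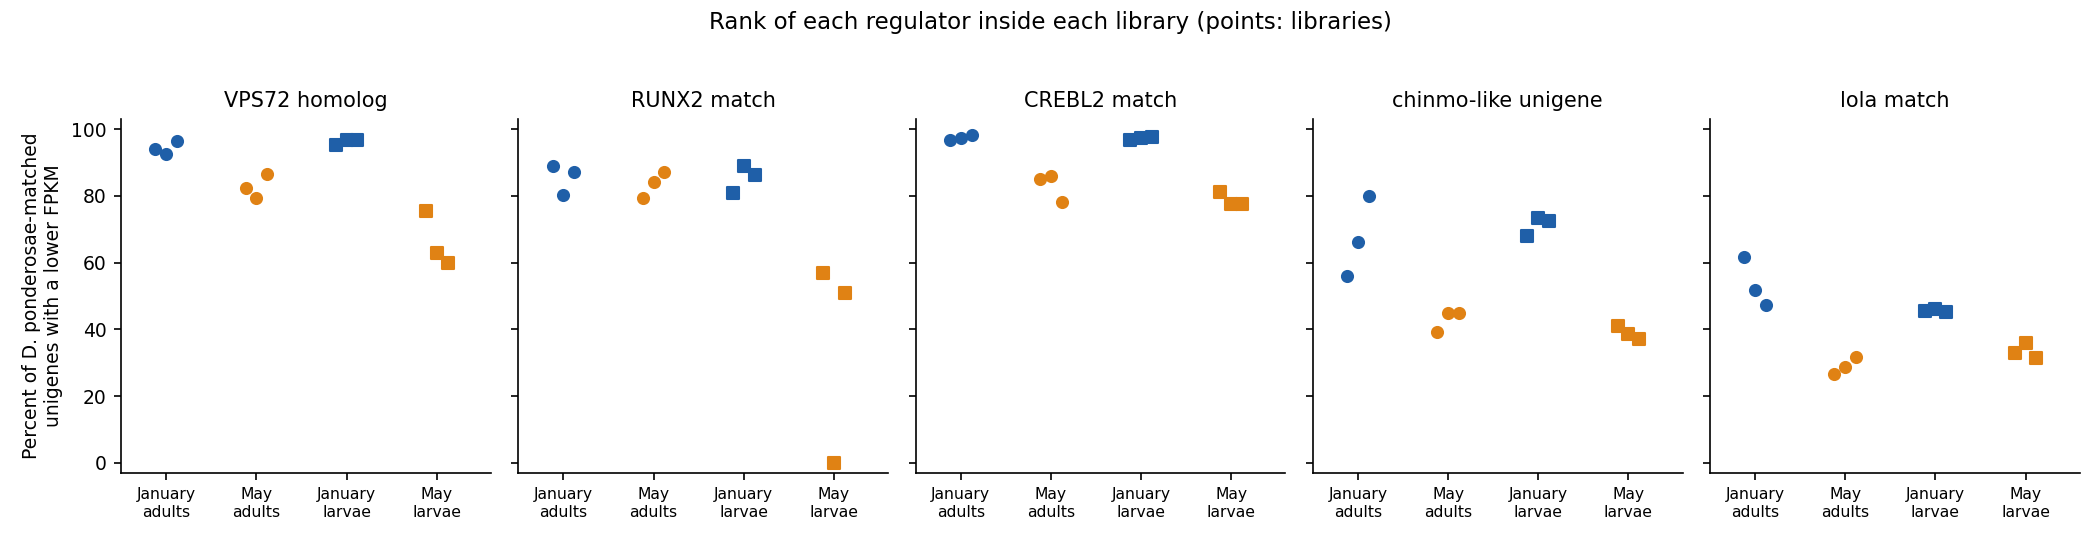
Rank of each regulator inside each library, as the percent of D. ponderosae-matched unigenes with a lower FPKM, for the 3 libraries of January adults, May adults, January larvae and May larvae. The RUNX2 match lies between 79.2% and 88.9% in every library but the 3 May larvae, where it is at 57.0%, 0% and 51.0%.

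Ratios between members within a library are also free of the scaling. The RUNX2 match had 0.144 to 0.331 times the FPKM of the CREBL2 match in January adults, against 0.671 to 1.66 times in May adults. In January larvae it had 0.125 to 0.182 times and in May larvae 0 to 0.128 times. The adult groups were separate in this ratio, and the January and May larvae overlapped. The VPS72 homolog had 0.386 to 0.556 times the FPKM of the CREBL2 match in January adults and 0.602 to 1.60 times in May adults, and 0.607 to 0.673 times in January larvae and 0.236 to 0.604 times in May larvae. Relative to the CREBL2 match, the VPS72 homolog was therefore lower in January than in May in adults and higher in January than in May in larvae, without overlap in either stage, though in larvae the gap between the groups was only that of 0.607 and 0.604.

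The spread between insects of a group varied among the members. As deposited, the coefficient of variation of the VPS72 homolog was 7.79% in January adults, 16.3% in May adults, 0.616% in January larvae and 54.1% in May larvae. The median over unigenes of at least 1 FPKM was 55.0% in January adults, 49.9% in May adults, 86.0% in January larvae and 87.1% in May larvae. The near-identical values of the January larvae were not kept after median-of-ratios scaling, where their coefficient of variation was 21.1%. For the CREBL2 match it was 12.2%, 41.0%, 4.92% and 7.19% in January adults, May adults, January larvae and May larvae. The January adults varied most in the chinmo-like unigene, at 47.6%, and the lola match, at 49.4%: January adult 1 was the lowest of its group in the chinmo-like unigene and the highest in the lola match.

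Stage over both months was the comparison taken as not used to choose the members. Adults and larvae were compared over both months in a limma fit of all 12 libraries, with a call at a Benjamini-Hochberg adjusted p under 0.01 and an absolute difference of at least 1 on the log2(FPKM + 1) scale. Of the 28117 unigenes tested, 3.96% were called higher in adults and 1.62% lower, and after median-of-ratios scaling 2.629% higher and 3.998% lower, so that the balance of the calls turned. All 5 regulators passed the filter, and 1 of them, the RUNX2 match, was called. Its lowest, median and highest values were 16.43, 30.96 and 56.96 FPKM in the 6 adults, against 0, 15.99 and 40.53 FPKM in the 6 larvae. The RUNX2 match was higher in adults by 2.02 (SE 0.33, limma adjusted p = 0.00301), with a 95% interval of 1.30 to 2.73. An exact permutation of the stage labels within each month gave a two-sided p of 0.045 for it, the smallest p this design allows being 0.005.

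This call of the RUNX2 match rested on the May insects and was lost with scaling. The adult minus larva difference was 0.08 in January, where the groups overlapped, and 3.95 in May, where every adult was above every larva. The low May larvae behind this call also enter the month differences taken as used in the choice. The p of this call may therefore depend on that choice. With median-of-ratios scaling the difference over both months was 1.61 (95% interval 0.75 to 2.46, limma adjusted p = 0.0174), still higher in adults and no longer called. Without May adult 2 it was 1.92 (limma adjusted p = 0.0107) and without May adult 3 it was 1.96 (limma adjusted p = 0.0140), and neither passed.

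The other 4 regulators did not pass the test of stage. The VPS72 homolog differed by 0.87 (95% interval 0.31 to 1.43, limma adjusted p = 0.0366) and the lola match by 0.79 (95% interval 0.04 to 1.53, limma adjusted p = 0.118). For the chinmo-like unigene the difference was 0.76 (95% interval 0.03 to 1.49, limma adjusted p = 0.123), and for the CREBL2 match 0.50 (95% interval -0.02 to 1.03, limma adjusted p = 0.144). These intervals hold differences above 1 in all 4. The median difference of all tested unigenes was 0.77. With median-of-ratios scaling that median was 0.52, and the differences were 0.29 for the VPS72 homolog, 0.60 for the lola match, 0.48 for the chinmo-like unigene and -0.13 for the CREBL2 match, whose sign turned. The exact permutation p of the lola match was 0.015 as deposited and 0.005, the smallest possible, after scaling, while its limma adjusted p on the scaled values was 0.203. The exact permutation p of the 5 members was not adjusted for their number.

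**Figure D4:**
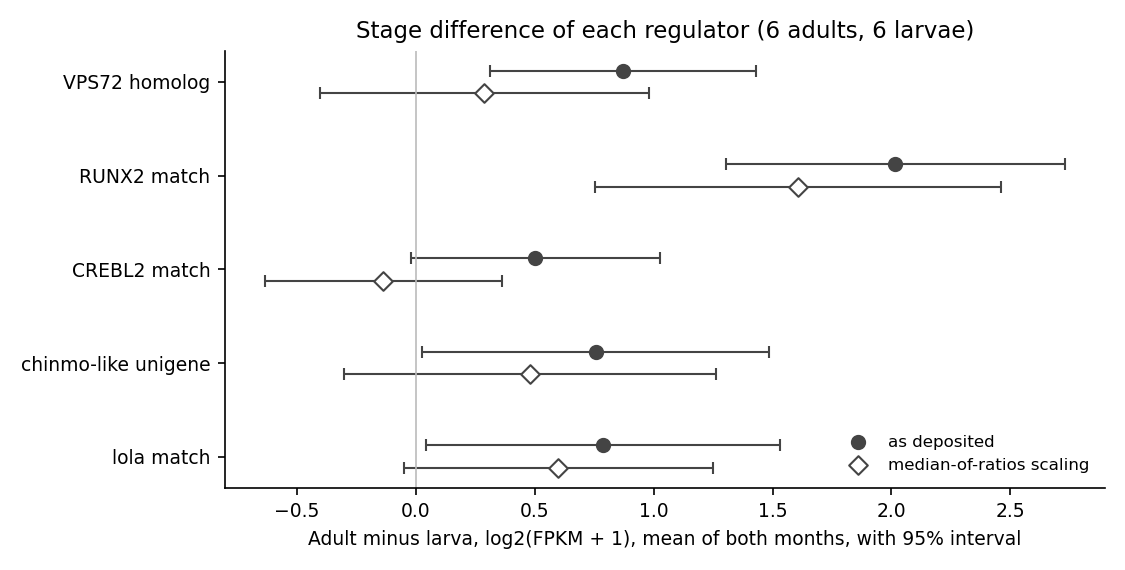
Adult minus larva difference of each regulator over both months on the log2(FPKM + 1) scale (6 adults and 6 larvae), with its 95% interval from the fit; filled circles are FPKM as deposited and open diamonds FPKM after median-of-ratios scaling. The RUNX2 match lies farthest to the right, at 2.02 as deposited and 1.61 scaled, and the CREBL2 match changes sign between the scales.

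Within a month the adults and larvae of the other regulators are given as a description, since these values overlap with those used in the choice. In January the adult minus larva difference was -0.70 for the VPS72 homolog, -0.30 for the CREBL2 match, -0.15 for the chinmo-like unigene and 0.78 for the lola match. In May the differences were 2.44 for the VPS72 homolog, 1.30 for the CREBL2 match, 1.67 for the chinmo-like unigene and 0.79 for the lola match. Every May adult was thus above every May larva for all 5 regulators, as was the case for 31.8% of all tested unigenes. For the CREBL2 match this May difference was 0.00 after median-of-ratios scaling, and the groups overlapped.

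The assembler placed 10 further unigenes in the same assembly groups as the members, and 5 of them were tested over all 12 libraries. They have no name in the parts of the annotation used here, and whether they are pieces of the same genes is not known. The unigene DN23225_c1_g2, in the group of the VPS72 homolog, had 7.49, 7.06 and 2.44 FPKM in January adults, against 14.52, 18.68 and 17.39 FPKM in May adults. It had 2.48, 2.72 and 2.57 FPKM in January larvae, against 0.90, 1.44 and 0.99 FPKM in May larvae. In adults its order of the months was thus opposite to that of the VPS72 homolog, which was higher in January. It was higher in adults than in larvae by 1.93 (SE 0.33, limma adjusted p = 0.00384), and by 1.43 after median-of-ratios scaling (limma adjusted p = 0.00576).

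A further unigene of that group, DN23225_c0_g1, had 2.41, 2.81 and 1.11 FPKM in January adults, against 7.46, 16.93 and 10.29 FPKM in May adults, and was at most 1.29 FPKM in larvae. It too was higher in adults, by 1.90 (SE 0.36, limma adjusted p = 0.00627). In the group of the chinmo-like unigene, DN25066_c0_g1 was far more abundant, with 403.43, 399.99 and 147.65 FPKM in January adults against 95.98, 227.26 and 140.47 FPKM in May adults. In larvae it had 338.07, 197.66 and 250.73 FPKM in January against 33.11, 91.01 and 29.23 FPKM in May. Its January-May difference in larvae was 2.49 (SE 0.50, limma adjusted p = 0.00666) and fell short of the threshold after median-of-ratios scaling, at 1.08 (limma adjusted p = 0.0637). The other tested unigenes, in the groups of the RUNX2 match and the CREBL2 match, were not called for stage. The one in the group of the RUNX2 match, DN24512_c0_g3, was called higher in January larvae by 1.56 (limma adjusted p = 0.00264). The call was lost after scaling (0.93, limma adjusted p = 0.0638). This unigene was admitted to the larval test only through its January larvae, with 0.5, 0.19 and 0.3 FPKM in May larvae.

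**Figure D5:**
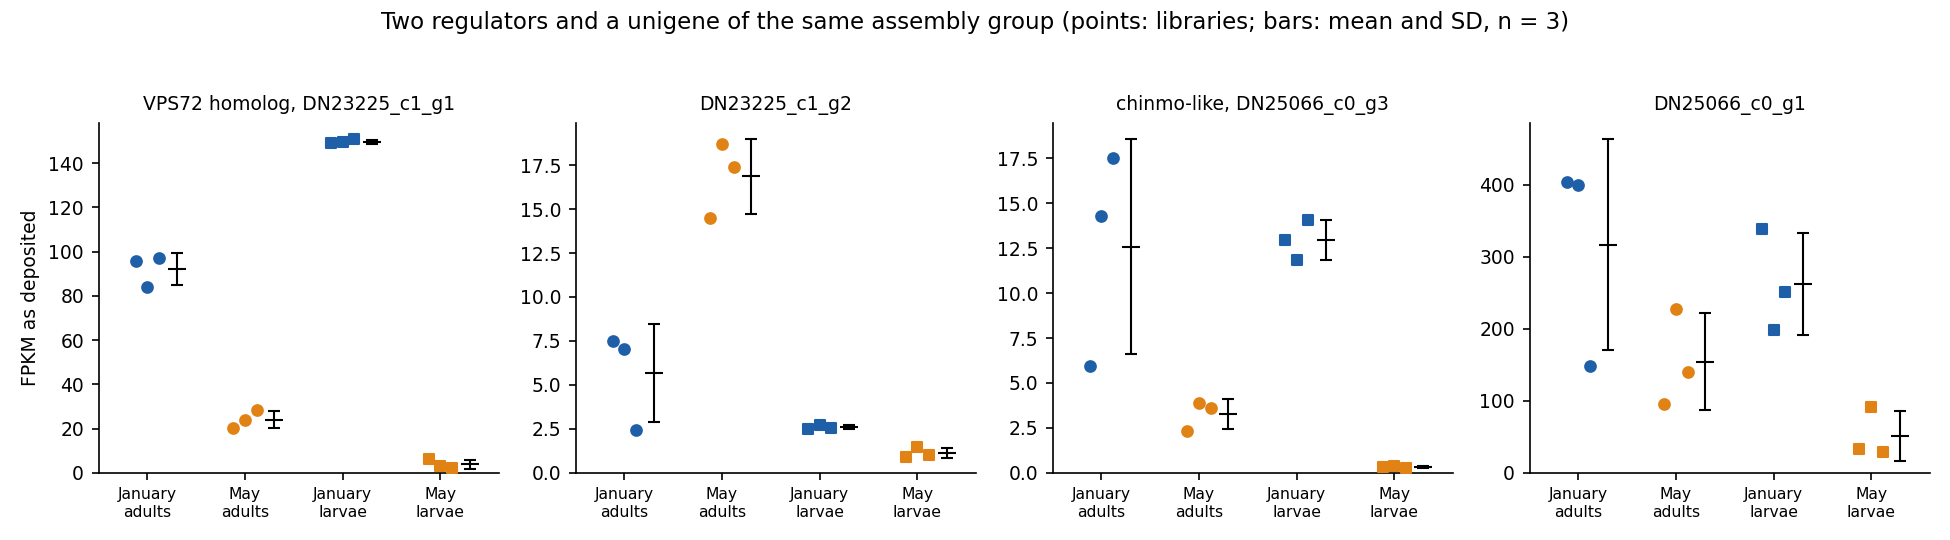
FPKM as deposited of the VPS72 homolog and of DN23225_c1_g2 from the same assembly group, and of the chinmo-like unigene and DN25066_c0_g1 from its group, in January adults, May adults, January larvae and May larvae; points are libraries and bars the mean and SD of 3. The VPS72 homolog is highest in January larvae, at 148.86 to 150.69 FPKM, and DN23225_c1_g2 is highest in May adults, at 14.52 to 18.68 FPKM.

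The partners of VPS72 in histone exchange that had a match were read beside it, named here for that role. Histone H2A.V (DN15964_c0_g1), the variant that VPS72 complexes deposit in flies, had 256.04, 154.38 and 36.22 FPKM in January adults, against 31.35, 83.08 and 63.17 FPKM in May adults. It had 48.42, 50.26 and 51.50 FPKM in January larvae, against 18.09, 29.47 and 30.52 FPKM in May larvae. The larval groups did not overlap and the adult groups did, and its January-May difference passed the test in neither larvae (0.95, limma adjusted p = 0.0414) nor adults (1.03, limma adjusted p = 0.281). After median-of-ratios scaling its larval difference turned to -0.45 and its adult difference was 1.004, neither of them called. Enhancer of polycomb (DN26040_c0_g1) and a bromodomain protein 8 match (DN19316_c0_g1), which in flies belong to the Tip60 complex together with YL-1, were not called in larvae or adults either, with larval differences of 0.23 and 1.18 that turned to -1.10 and -0.02 after scaling.

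Wider lists of regulators, taken by name from the annotation, give the setting. They were drawn up with earlier results of these data known. Of the 12 lola matches below, 8 came from the study's list of unigenes that differ between the months. Of 19 chromatin proteins, all tested, 4 were higher in January larvae than in May larvae and none lower, which is 21.1% against 32.0% of all unigenes tested in larvae. Their median difference was 1.40, against 1.26 over all tested unigenes. After median-of-ratios scaling 2 were called higher (10.5%, against 13.3% of all tested), and the median was 0.37, against 0.23. The 4 included a histone-lysine methyltransferase 2E match (DN24122_c1_g2, 3.69) and a CXXC-type zinc finger protein 1 match (DN25422_c0_g2, 2.59). The others were a SMARCAL1 match (DN22267_c0_g1, 2.09) and the acetyltransferase KAT6B match (DN25942_c0_g1, 2.05). Of these, the KAT6B match reached 1 FPKM in larvae only in January, so that the group where it was high also admitted it to the test. In adults limma called 0 of the 19 between the months, with 4 at an unadjusted p under 0.05, against 28.3% of all unigenes called higher. After scaling it called 1 higher (5.26%), against 35.1% of all. For stage, 1 of the 19 (5.26%, against 3.96% of all), the methyltransferase 2E match, was called higher in adults, by 1.81 (SE 0.30). After scaling limma called 0, with 4 at an unadjusted p under 0.05, against 2.63% of all called higher.

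Of 17 further C2H2 zinc finger proteins, 8 were tested in larvae and 2 of them were higher in January (25.0%, against 32.0% of all unigenes tested). After median-of-ratios scaling limma called 0 of 9, with 4 at an unadjusted p under 0.05, against 13.3% of all called higher. The 2 were DN20974_c2_g1 (2.74) and DN21795_c0_g1 (1.88), both matched to proteins with arrays of zinc fingers, and DN21795_c0_g1 was admitted to the test only through its January larvae. The unigene DN20974_c2_g1 was also higher in adults than in larvae, by 2.37 (SE 0.37) and after scaling by 2.01 (limma adjusted p = 0.00193). Of 14 homeobox, nuclear receptor and other sequence-specific factors only 2 passed the filter in larvae and 4 in adults. A retinal homeobox Rx1 match (DN24072_c0_g3) was called higher in January larvae by 1.56, but was admitted to the test only through those larvae, and the call was lost after scaling. The ecdysone receptor (DN27540_c0_g1), through which the moulting hormone acts, had 3.39, 4.21 and 1.22 FPKM in January adults, against 9.24, 15.36 and 7.92 FPKM in May adults, and was higher in adults than in larvae by 1.84 (SE 0.36, limma adjusted p = 0.00748). That stage call was lost after scaling (1.44, limma adjusted p = 0.0101). Its January minus May difference in adults was -1.63 (limma adjusted p = 0.0320) and was called only after scaling, at -1.60 (limma adjusted p = 0.00850).

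A further 12 unigenes matched lola, 4 of them only in the Swiss-Prot search and under another name in the Nr search, and 11 were tested. In larvae 9 of the 11 were higher in January and in adults 2, that is 81.8% and 18.2%, against 32.0% and 28.3% of all unigenes tested. After median-of-ratios scaling 4 and 6 were higher, that is 36.4% and 54.5%, against 13.3% and 35.1% of all. Of the 9 called in larvae, 4 were admitted to the test only through their January larvae, and after scaling 3 of the 4 called. In adults, 1 of the 2 called as deposited was admitted only through its January adults, and after scaling 2 of the 6. Of the 12, 8 were known only from the study's list of unigenes that differ between the months, so their direction is not independent evidence. Of the other 4, with 3 tested, 2 were higher in January larvae and 1 in January adults. No lola unigene was called for stage by limma, with 0 of the 11 at an unadjusted p under 0.05, and the median stage difference of the 11 was 0.29, against 0.77 over all tested unigenes. Unigenes of 1 lola locus can share the common first exons of its isoforms, so that reads may be split among them.

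The annotated unigenes with the most similar profiles were found by the root mean square difference of log2(FPKM + 1), each profile centred on its own mean over the 12 libraries. Of the 1005 other annotated unigenes compared with each member, 311 at most came from the study's list of month-dependent unigenes, so likeness in the month pattern was favoured by that pool. Nearest to the VPS72 homolog was the CREBL2 match itself, at 0.58, followed by an interferon regulatory factor 2-binding protein-like match (DN23876_c1_g1) at 0.60 and an aryl-hydrocarbon-interacting protein-like 1 match (DN26969_c0_g3) at 0.64. The same interferon regulatory factor 2-binding match was nearest to the CREBL2 match, at 0.46, before a THAP domain protein 1 match (DN24763_c0_g4) at 0.55 and the ribosome maturation protein SBDS (DN23088_c0_g2) at 0.56. The median over all tested unigenes was 1.90 for the VPS72 homolog and 1.82 for the CREBL2 match.

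The RUNX2 match lay nearest to a mitochondrial folate carrier (DN21720_c0_g1) at 0.60, a xyloside xylosyltransferase 1 match (DN20689_c1_g1) at 0.68 and an SDE2 homolog (DN24954_c0_g1) at 0.69. The folate carrier averaged 35.9 FPKM in January adults, 38.2 FPKM in May adults, 33.4 FPKM in January larvae and 1.39 FPKM in May larvae, so it too was low in May larvae alone. Nearest to the chinmo-like unigene were a colorectal mutant cancer protein match (DN23749_c0_g5) at 0.42, a polypyrimidine tract-binding protein 2 match (DN25085_c0_g4) at 0.43 and the interferon regulatory factor 2-binding match at 0.49. For the lola match they were a centromere protein J match (DN22943_c0_g1) at 0.24, a PAX-interacting protein 1 match (DN23614_c0_g1) and a complexin match (DN25100_c1_g2), both at 0.30. After median-of-ratios scaling the nearest unigene of each member kept its place, whereas the other two of the lola match moved to places 21 and 22. Among the members themselves the VPS72 homolog and the CREBL2 match were the closest pair, at 0.58 as deposited and 0.61 after scaling. The farthest pair was the RUNX2 match and the lola match as deposited, at 1.29, and the RUNX2 match and the CREBL2 match after scaling, at 1.30.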

How the data were processed

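Poly(A) RNA of 12 single whole insects was sequenced. After trimming (SeqPrep, Sickle) and Trinity assembly, the authors mapped the reads with Bowtie2 2.3.5.1 and estimated abundance with RSEM 1.2.31. FPKM rounded to 2 decimals were deposited, with no scaling between libraries stated. The files hold no read counts or unigene lengths: from the steps of low values, 1 read was worth 0.883 to 1.49 times its value in January adult 1, a weak estimate for May larvae, so the reads behind a member's value are not known from the files and no counting interval is given.

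log2(FPKM + 1) values were fitted with limma 3.58.1 (trend) in R 4.3.3, on unigenes at 1 FPKM or more in at least 3 libraries of the fit, with Benjamini-Hochberg adjustment over all of them. The stage effect was the mean adult minus larva difference over both months; month effects were fitted within each stage. Stage labels were also permuted exactly within month. On simulated data for the stage effect (200 of 28117 unigenes changed), log2 changes of 4 were called in 72.5% and changes of 2 in 0%, with 0 false calls. The real fit called 1568 unigenes, far more than were changed in the simulation, so these shares do not carry over to it. The RUNX2 match was called there at 2.02. As deposited, the intervals of the uncalled regulators ended under 2. The upper ends were 1.43 (VPS72 homolog), 1.03 (CREBL2 match), 1.49 (chinmo-like unigene) and 1.53 (lola match).

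Alternatives were another pseudocount (0.1), no filter, median-of-ratios scaling over common or over 876 D. ponderosae-matched unigenes, equal FPKM sums, a replicate block, a threshold of 0.05, 1 fit for all libraries, and leaving out each insect. Median-of-ratios scaling within the stage, and leaving out January larva 3 with May larva 1, were added after the data were seen. Groups come from the sample labels and months from the study's methods. The members and lists were chosen with earlier results of these data known. Named were the 5 members, up to 4 called unigenes of each list by size of difference, the 3 annotated unigenes nearest in profile and the unigenes of the same assembly group; the VPS72 partners, the ecdysone receptor values and the flagged unigenes were named by role or after their values were seen. Names come from the study's annotation, of which parts were used, and sequences of the 5 unigenes were not used here.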

Additional observations from a re-analysis of the deposited data

Results flagged for a closer look

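As deposited, no regulator of the 5 moved in opposite directions in adults and larvae. With median-of-ratios scaling within the stage the RUNX2 match did, at -0.55 in adults, where the months overlapped, and 3.44 in larvae. Groups of 3 are too small for a test of single outlying insects. Among the unigenes of the same assembly groups and the wider lists, 4 had all January insects below all May insects in adults and above them in larvae, on the deposited scale. The share of all tested unigenes with this pattern was not computed, so nothing is read from the count. The larval minus adult January-May difference of DN23225_c1_g2, from the assembly group of the VPS72 homolog, was 2.3 (SE 0.66, limma adjusted p = 0.0527), and 1.40 after median-of-ratios scaling. For a SWI/SNF nucleosome remodelling component match (DN24242_c1_g1) it was 2.79 (limma adjusted p = 0.0458), and 1.84 after scaling. For the acetyltransferase KAT2B match (DN27137_c1_g1) it was 1.49 (limma adjusted p = 0.130), and 0.28 after scaling. For the ecdysone receptor (DN27540_c0_g1) it was 2.32 (limma adjusted p = 0.0724), and 1.65 after scaling. The larval January minus May difference was close to 0 after scaling in 3 of them, at -0.12 for DN23225_c1_g2, -0.03 for DN27137_c1_g1 and 0.05 for DN27540_c0_g1, so the opposite movement rests on the deposited scale there, and it was 0.61 for DN24242_c1_g1. None of the 4 interaction tests passed an adjusted p of 0.01.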

How the results depend on the processing

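The stage difference of the RUNX2 match (2.02) stayed positive under all 20 alternatives, with limma adjusted p from 0.00110 to 0.0174. It no longer passed with median-of-ratios scaling (1.61), with scaling over D. ponderosae matches (1.63) or with a replicate block (2.02, adjusted p = 0.0114), and ran from 1.83 to 2.16 when single insects were left out. The uncalled stage difference of the CREBL2 match turned to -0.13 and -0.10 under those scalings, and the January minus May difference of the RUNX2 match in adults to -0.55 with scaling within the stage. No other member's stage call changed. Left-out insects moved the stage difference from 0.73 to 1.03 (VPS72 homolog), 0.36 to 0.64 (CREBL2 match), 0.62 to 0.97 (chinmo-like unigene) and 0.64 to 0.97 (lola match).

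The larval minus adult January-May difference was, with median-of-ratios scaling and with scaling over D. ponderosae matches, 1.91 and 1.96 for the VPS72 homolog, 3.01 and 3.04 for the RUNX2 match, 0.26 and 0.32 for the CREBL2 match and 1.19 and 1.22 for the chinmo-like unigene. With equal FPKM sums it was 3.62 for the VPS72 homolog and 2.14 for the CREBL2 match. With a pseudocount of 0.1 it was 5.44 for the RUNX2 match, 3.14 for the chinmo-like unigene and 1.17 for the lola match. Left-out insects gave 2.86 to 3.46, 3.50 to 4.16, 1.30 to 1.86, 1.40 to 2.11 and -0.35 to 0.31 for the VPS72 homolog, RUNX2 match, CREBL2 match, chinmo-like unigene and lola match. Without a January larva the last 2 did not pass the larval filter and have no larval value.

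Counts over all unigenes were less stable, and the cause was not tested. Stage calls (1568, 71.0% higher in adults) turned to 686 higher and 1043 lower with median-of-ratios scaling and 722 and 995 over D. ponderosae matches. They numbered 733 with no filter, 2506 with equal sums, 569 with the replicate block, 4555 at 0.05, 10230 without January larva 3 and May larva 1, and 403 to 3933 with 1 insect left out. Larval month calls (4149, 89.8% higher in January) numbered 374 with no filter, 2763, 2750 and 2730 with the 3 scalings (56.0%, 58.4% and 56.4% higher), 6263 at 0.05, 2376 in 1 fit of all libraries, 411 without January larva 3 and May larva 1, and 52 to 2424 with 1 insect left out. With the replicate block limma called 0, with 6419 at an unadjusted p under 0.05. Adult month calls (7632, 86.8% higher) numbered 4607 with a pseudocount of 0.1, 1829 with no filter, 11607 at 0.05, 794 in 1 fit (41.1% higher) and 111 to 5844 with 1 insect left out; scaling within the stage gave 3387 higher and 2939 lower. Replicate numbers only name the insects: same-numbered deviations correlated from -0.64 to 0.42, so the block is no pairing.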
